A study of Rattus norvegicus with 24 samples.

Results

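The transcripts described here are those of the unexposed rat brain in a series on repeated volatile anaesthesia, measured on the 12 arrays titled as controls out of 24 arrays in all. Each array held whole-brain total RNA of Rattus norvegicus on a single-colour oligonucleotide chip. The control animals breathed halothane for 3 min and were then perfused with ice-cold saline, a step that washes blood out of the vessels, so every control had met an anaesthetic briefly. The 4 exposed groups of 3 arrays each, with 5 or 10 exposures to 0.8% halothane or 1.0% isoflurane, were not analysed here. Strain, sex and age were not stated in the sources at hand. Nothing in the labels says that the 12 controls were separate animals, so the spread between arrays may be partly technical.

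Whole brain is a mixture. Neurons carry the electrical and synaptic machinery, astrocytes take up transmitters and supply lipid and metabolites, oligodendrocytes wrap axons in myelin, and microglia, vessel cells, choroid plexus and meninges make up smaller fractions. Energy demand is high, and much of the ATP is spent by the sodium-potassium pump that restores ionic gradients after firing. In such a bulk sample, fewer cells of a type and less RNA per cell cannot be told apart.

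The signal is a brightness on a linear scale with no unit, and each of the 8740 probe sets analysed has its own affinity, so a rank here is a rank of brightness and not of molecules. The size of that limit can be read from genes with more than 1 probe set. Among 980 such genes whose brightest probe set averaged at least 100, the brightest and the dimmest differed by a median of 3.49-fold, and by over 10-fold in 196 genes (20%). A gene is given below by its brightest probe set with a single gene symbol, which leaves 4736 genes. Spread between arrays is given as the standard deviation (SD) of log2 signal over the 12 arrays, with values under 16.6, the 25th percentile of the 12 arrays, raised to 16.6.

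All 12 arrays had been brought to nearly the same overall level, with trimmed means of 150.1 to 150.2. Correlations between arrays ran from 0.950 to 0.983, no 2 arrays were identical, and the ratio of 3' to 5' probe signals lay between 1.36 and 2.10 for actin and between 0.877 and 1.08 for Gapdh. Signals of 9 bacterial spike-in probe sets fell into a low level on 7 arrays (controls 2 and 4 to 9) and a high level on 5 (controls 1, 3, 10, 11 and 12). Controls 4 to 9 were the most alike, with correlations of 0.973 to 0.983 among themselves, and 0.950 to 0.974 with the other 6 arrays. Their actin ratios were 1.64 to 2.10 and their median signals 60.4 to 64.9. On the other 6 arrays these were 1.36 to 1.63 and 53.5 to 57.9, so neither measure overlapped, whereas the Gapdh ratios did. This split differs from that by spike-in level in control 2, and what lies behind it was not tested.

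The listed markers of neurons were bright in part. Snap25, a SNARE protein of synaptic vesicle fusion, averaged 2877 ± 567 (SD, n = 12), and Syp, the vesicle protein synaptophysin, averaged 1205 ± 255. Nefl, the light neurofilament chain, averaged 1100 ± 94.5, Nefm, the medium chain, 645 ± 137, and Gad1, which makes GABA, 819 ± 101. Other neuronal markers were dim. Syt1, the calcium sensor of vesicle release, averaged 154 ± 61.3, Camk2a, the synaptic calcium kinase, 54.6 ± 9.58, and Slc17a7, the vesicular glutamate transporter, 6.78 ± 3.07, above 16.6 on 0 of 12 arrays. As background, neurons are known to be rich in these 3 transcripts, and what their probe sets read was not tested. Eno2, Stmn2 and Gfap had no probe set with a single symbol and were not analysed here.

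Signal was concentrated in few probe sets. The median probe set averaged 59.8, the 90th percentile was 441 and the 99th was 2559. The 100 brightest probe sets held 22.2% of all signal on the lowest array and 24.6% on the highest, with a mean of 23.5% ± 0.86. The brightest 10%, 874 probe sets, held 63.0% ± 1.25, and the brighter 4370 probe sets held 94.9% ± 0.42. At the dim end, 1117 probe sets (12.8%) were above 16.6 on none of the arrays, and 5363 (61.4%) were above it on all 12.

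The genes at the top served respiration, myelin, lipid transport, ion pumping and the cytoskeleton. COX1, a catalytic subunit of cytochrome oxidase encoded in mitochondrial DNA, was the brightest named gene, with a lowest value of 5452, a median of 7294 and a highest of 7958, and a mean of 7054 ± 789. It ranked first or second among genes on every array, and its other probe set averaged 6489 ± 901. COX3, another mitochondrially encoded subunit, averaged 6969 ± 1111 with ranks of 1 to 5. COX2, the third such subunit, averaged 4987 ± 1254 and was less even, from 3164 on control 1 to 6833 on control 5, and its rank moved between 3 and 27. Controls 1, 2, 3 and 11 had COX2 values of 3164 to 3660, and the other 8 arrays were at 4964 or higher.

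Apoe, the lipoprotein that carries cholesterol from astrocytes to neurons, had a lowest value of 4685, a median of 5576 and a highest of 6780, with a mean of 5549 ± 713. Its second probe set averaged 4031 ± 680, so the gene was among the brightest by either. Mbp, myelin basic protein, averaged 5482 ± 638, and its value of 3981 on control 12 was the lowest of the 12, the others lying between 4609 and 6224. Both genes stayed within the first 17 genes on every array.

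Sparc, a secreted matrix glycoprotein, stood at rank 5 with 5199 ± 992, but this place rested on 1 probe set. The other 3 Sparc probe sets averaged 953, 801 and 375. The level of Sparc thus differed by more than 5-fold with the probe set read. The bright one was lowest on control 2 and highest on control 4, as COX3 was. An unnamed probe set whose label carries the same sequence name averaged 6097 ± 1223 and was lowest and highest on the same arrays. What these bright probe sets read was not tested. Sparcl1, a related glycoprotein of astrocytes, averaged 3755 ± 452 on its only probe set.

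The rest of the first 25 genes were close to one another in brightness, each by its brightest probe set. The second probe set was much dimmer for some, at 1531 for Ywhah and 1224 for Ckb, and nearly equal for Ndrg4. Ywhah, an adaptor protein of neurons, averaged 4948 ± 480, Rps29, a protein of the small ribosomal subunit, 4939 ± 369, and Gnas, the stimulatory G protein alpha subunit, 4817 ± 635. Atp1b1, the beta subunit of the sodium-potassium pump, averaged 4693 ± 337, with the lowest array at 4214 and the highest at 5204, the smallest relative spread of the 25 (coefficient of variation 7.19%). Cst3, the protease inhibitor cystatin C, averaged 4679 ± 716, and Tmsb4x, which holds actin monomers, 4629 ± 394. From rank 7 to rank 12 the means differed by less than 1 SD of each of these genes, so their order is not fixed. Actb and Actg1, the cytoplasmic actins, averaged 4366 ± 379 and 3539 ± 647, and Tuba1b, an alpha-tubulin, 3783 ± 319. Actg1 was at 4394 or higher on controls 1, 2 and 11 and lower on the other 9, whose highest was 3517.

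Psap, the precursor of the saposins that activate lysosomal lipid breakdown, averaged 4337 ± 425. Ndrg4, a neuronal member of the NDRG family, averaged 4235 ± 334, and its 2 probe sets were nearly equal, at 4235 and 4221. Ckb, brain creatine kinase, which buffers ATP, averaged 4067 ± 674, and Hsp90ab1, a constitutive chaperone, 3918 ± 432. Oaz2, ornithine decarboxylase antizyme, averaged 4094 ± 851 on its only probe set. Its range of ranks was the widest, 6 to 59, with values from 2199 on control 2 to 5337 on control 5. Aldoc, the brain form of the glycolytic enzyme aldolase, averaged 3763 ± 500. Cox8a and Cox4i1, nuclear-encoded subunits of cytochrome oxidase, averaged 3523 ± 686 and 3400 ± 396, and Atp6v0c, the proton-pore subunit of the vacuolar ATPase that acidifies synaptic vesicles, 3493 ± 341.

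**Figure D1:**
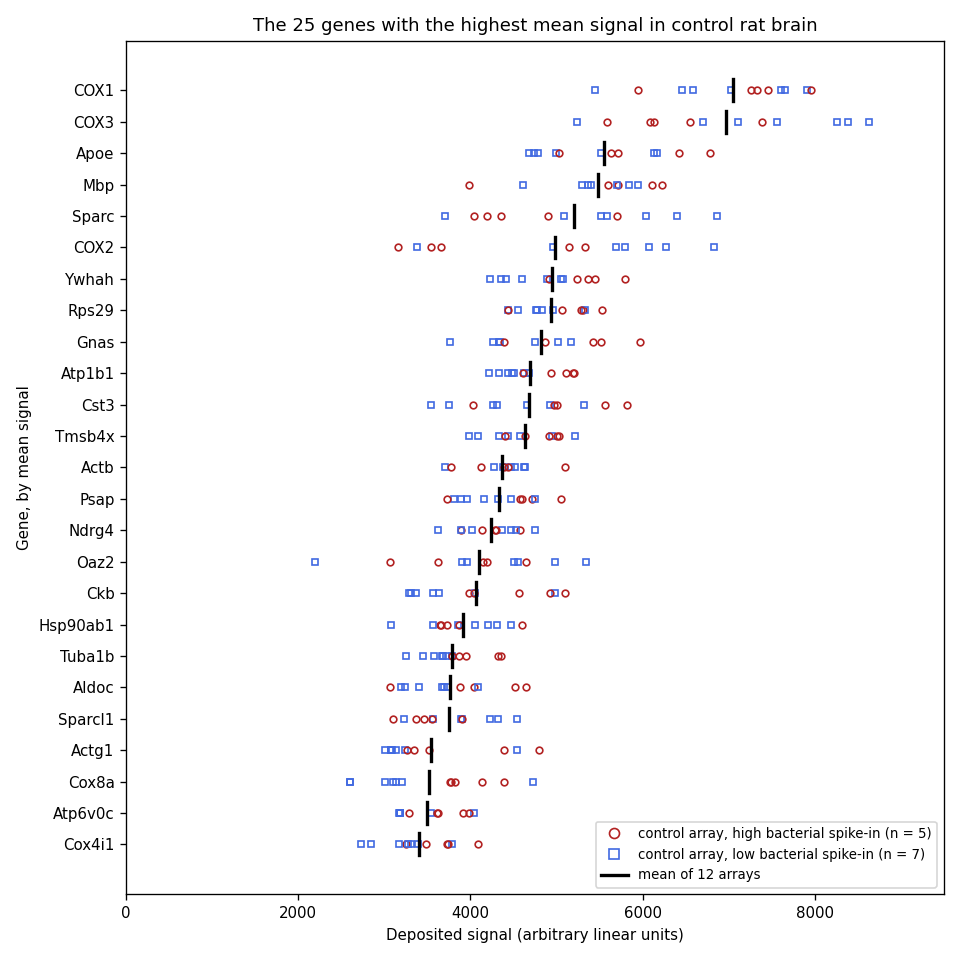
Deposited signal (linear, arbitrary units) of the 25 genes with the highest mean, 1 mark per control array, circles for the 5 arrays of high and squares for the 7 of low bacterial spike-in signal, and a bar at the mean of 12. COX2 and Oaz2 have the longest rows of marks relative to their means, while those of Atp1b1 and Rps29 lie close together.

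The list is of named genes, and brighter probe sets without a name exist. The first named probe set ranked 9th, and the 8 above it had no gene in the annotation, the brightest averaging 10604 ± 1285. Of the 100 brightest, 60 had a single symbol and stood for 44 genes, 24 were unnamed and 16 had several symbols.

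Sequence upstream of the genes was available from RefSeq (build GRCr8) for 3879 of the 4736 genes. The 100 bases before the annotated start are shown for Apoe and Mbp, among the brightest genes, for Gnas, the only one of 18 bright genes with a promoter entry that has TATAAA near its start, and for the insulin genes Ins2 and Ins1, whose promoters represent the pancreatic class described below. Capitals mark TATAAA within 50 bases of the start, GGGCGG (the GC box) and CCAAT, each searched on both strands, so that TTTATA and CCGCCC are matches of the reverse strand. The Gnas stretch is chr3:183489548-183489647 on the plus strand, that of Apoe chr1:88485817-88485916 on the minus strand, that of Mbp chr18:78130552-78130651 on the plus strand, that of Ins2 chr1:207273806-207273905 on the minus strand and that of Ins1 chr1:261186019-261186118 on the plus strand.
Gnas: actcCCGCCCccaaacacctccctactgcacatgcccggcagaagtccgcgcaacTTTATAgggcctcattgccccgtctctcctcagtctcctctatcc
Apoe: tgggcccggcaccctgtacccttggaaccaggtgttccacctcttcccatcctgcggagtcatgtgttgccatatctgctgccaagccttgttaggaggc
Mbp: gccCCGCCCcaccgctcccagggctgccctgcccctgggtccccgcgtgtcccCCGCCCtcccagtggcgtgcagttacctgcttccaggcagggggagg
Ins2: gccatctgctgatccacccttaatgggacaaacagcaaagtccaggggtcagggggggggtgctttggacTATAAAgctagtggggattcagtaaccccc
Ins1: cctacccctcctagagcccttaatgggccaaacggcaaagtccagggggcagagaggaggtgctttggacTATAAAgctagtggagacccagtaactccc

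GGGCGG within 250 bases before the start was held by 261 of 399 promoters (65.4%) of genes in the brightest 10% and by 119 of 392 (30.4%) of the dimmest 10%, beside 53.0% of all 3879 array genes with a promoter and 32.4% of all 27457 promoters in the table. The share was 64.5% and 68.4% in the next deciles down and then declined in each following decile. Base composition ran the same way, with a median GC content of 61.6% in the brightest 10% and 52.4% in the dimmest, so the motif and the composition go together. CCAAT showed no such gradient, at 34.1% of the brightest and 37.0% of the dimmest 10%, beside 35.8% of the array genes and 34.3% of all promoters. TATAAA within 50 bases was found in 5.51% of the brightest and 9.44% of the dimmest 10%, beside 5.36% of the array genes and 3.33% of all promoters. It was far more frequent in particular classes, with 13 of 21 promoters of pancreatic and gut secretory genes, 8 of 27 of neuropeptide genes and 5 of 24 of liver and plasma protein genes. GGGCGG was held by 21 of 23 promoters of chaperone genes and by 0 of the 21 pancreatic and gut ones. A match is a description of letters and not evidence of a working site, and the absence of a match says only that the letters are not in the window.

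Functional classes separated widely by brightness. Of 44 classes with 878 measured genes, 17 had a median rank percentile of at least 75 and 12 a median under 40, where 50 is the middle of all 4736 genes. By construction 10% of all genes are in the top 10% and 40% in the bottom 40%. The classes were listed with earlier results of these data known, and their ranks are descriptions.

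Protein synthesis and respiration were bright as whole classes. Cytosolic ribosomal proteins had a median percentile of 96.8, with 31 of 37 genes in the top 10%, and the median of the class moved only between 96.0 and 97.2 over the arrays. Rps29 led them, Rpl27a averaged 2546 ± 228 and Rpl19 2152 ± 392. Members at the other end, Rpl30 at 34.1 ± 29.5 and Rpl5 at 9.76 ± 5.97, are parts of the same ribosome. Oxidative phosphorylation had 26 of 32 genes in the top 10% and a median percentile of 94.4. This list holds nuclear genes, and COX1, COX3 and COX2, described above, are not in it. After Cox8a and Cox4i1 came Cox6a1, a further cytochrome oxidase subunit, at 2752 ± 270, and the lowest were Cox8b at 41.5 ± 24.3, a form known from heart and muscle, and Cox5a at 30.2 ± 8.14. Translation factors had a median of 84.0, led by the elongation factor Eef2 at 2102 ± 351 and the helicase subunit Eif4a2 at 1959 ± 178.

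Glycolysis was more divided, with 10 of 24 genes in the top 10% and 6 in the bottom 40%, and a median percentile of 79.7. Pgam1, phosphoglycerate mutase, averaged 2933 ± 597 and Eno1, enolase, 2702 ± 174. The lowest members were Eno3, the muscle enolase, at 1.31 ± 0.43 and Slc2a2, the glucose transporter of liver and pancreatic islets, at 0.83 ± 0.39. Antioxidant genes had a median of 75.5, led by Mt3, the brain metallothionein, at 1598 ± 190, Sod1, the cytosolic superoxide dismutase, at 1281 ± 153 and the peroxiredoxin Prdx2 at 1100 ± 145.

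Protein folding and breakdown were bright as well. Chaperones had a median percentile of 88.9 with 13 of 27 genes in the top 10%, and after Hsp90ab1 came Canx, the calnexin of the endoplasmic reticulum, at 1483 ± 199 and Fkbp1a, a prolyl isomerase, at 1201 ± 168. Hspa1a, the stress-inducible Hsp70, was near the end of the list at 46.2 ± 12.6, with only the testis-enriched Hspa2 lower. Ubiquitin and proteasome genes had a median of 85.7, led by Uchl1, the neuronal ubiquitin hydrolase, at 2264 ± 252, followed by the proteasome subunit gene Psmb4 at 985 ± 235 and the activator subunit gene Psme1 at 939 ± 322. The immunoproteasome genes Psmb8 and Psmb9, known to follow interferon, were the 2 dimmest, at 88.9 ± 18.8 and 48.4 ± 11.8.

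Lipid synthesis genes had a median of 73.6, with 4 of 25 in the top 10%. Scd2, the desaturase of brain, averaged 2356 ± 370 and Acly, which supplies cytosolic acetyl-CoA, 978 ± 130. Acacb, an acetyl-CoA carboxylase of oxidative tissues, was the dimmest at 17.4 ± 6.10. Ion pumps had a median of 90.2 with 8 of 15 in the top 10%, and Atp2a2, the calcium pump of the endoplasmic reticulum, averaged 1739 ± 134, while Fxyd2, the gamma subunit of the kidney sodium pump, averaged 3.67 ± 1.20.

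Glial genes ranked high for astrocytes and oligodendrocytes and low for microglia. The astrocyte list had the highest median of all 44 classes, 98.2, with 11 of 17 genes in the top 10% and 0 in the bottom 40%. That first place depends on reading the brightest probe set of each gene. By the mean percentile of all probe sets of a gene its median was 91.7, below ribosomal proteins (95.5) and oxidative phosphorylation (94.3). Its leaders were Apoe, Cst3 and Aldoc, of which microglia are known to express Apoe and Cst3 too. Its dimmest were Gja1, the gap junction protein connexin 43, at 81.7 ± 30.9 and Slc1a2, the main astrocytic glutamate transporter, at 79.1 ± 16.6. Myelin genes had 8 of 13 in the top 10% and a median of 93.1. Mobp, a myelin-associated protein, averaged 2650 ± 489, and Cnp, an enzyme of myelin membranes, 809 ± 125. Microglial and immune genes had a median of 38.4 with 14 of 25 in the bottom 40%. Ctss, a lysosomal protease of microglia, stood apart at 949 ± 122, and B2m, the light chain of class I histocompatibility molecules, at 565 ± 42.7, whereas the cytokine gene Tnf averaged 7.30 ± 1.88 and the chemokine gene Ccl3 4.43 ± 3.51.

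Barrier and border cells gave a few bright genes over dimmer lists. Ttr, the thyroid hormone carrier secreted by choroid plexus, had a lowest value of 2269, a median of 3309 and a highest of 3952, with a mean of 3250 ± 450. The choroid plexus and ependyma list as a whole had a median of 52.7, with Foxj1, a transcription factor of ciliated cells, at 10.4 ± 5.03. Ptgds, the prostaglandin D synthase of meninges, averaged 3130 ± 380, while Nid1, a basement membrane protein, averaged 2.64 ± 1.25. Vessel genes had a median of 38.9 and 0 of 19 in the top 10%, and the brightest was Slc2a1, the glucose transporter of the blood-brain barrier, at 471 ± 87.9. Of 19 blood genes listed, 10 were measured, with 0 in the top 10% and 6 in the bottom 40%. The brightest blood gene measured, Hbb-b1, a beta-globin chain, averaged 199 ± 90.5, from 119 to 374, in these perfused brains. The haemoglobin genes Hba1 and Hba-a2 had no probe set with a single symbol and were not analysed here.

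Classes of neuronal machinery spanned a wide range of brightness. Tubulins, actins and their partners had a median of 92.4, with 14 of 23 in the top 10%. Calmodulin and its kinases had a median of 87.4, with Calm2, a calmodulin gene, at 2271 ± 356 and Nrgn, the postsynaptic calmodulin-binding protein neurogranin, at 2169 ± 345. Synaptic vesicle genes had 11 of 42 in the top 10% and a median of 75.8. Dnm1, the dynamin that pinches off vesicles, averaged 2242 ± 352 and Vamp2, the vesicle SNARE, 2041 ± 306.

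Transmitter enzymes and transporters had 6 of 14 in the top 10%. Glul, the glutamine synthetase of astrocytes, averaged 2574 ± 185 and Slc1a3, a glial glutamate transporter, 1395 ± 276. The receptor subunits had lower medians. GABA-A subunits, which form the chloride channels on which volatile anaesthetics act among other targets, had a median of 56.5, led by Gabrb2 at 782 ± 87.3, Gabra6, the subunit of cerebellar granule cells, at 564 ± 269 and Gabrd, an extrasynaptic subunit, at 470 ± 87.4. The subunits Gabrr2 and Gabrr3, known from the retina, averaged 6.88 ± 1.73 and 5.03 ± 2.64. Ionotropic glutamate receptor subunits had a median of 52.7 and 0 of 16 in the top 10%, with Grin2c, an NMDA receptor subunit of cerebellum, at 482 ± 132, the kainate receptor subunit Grik5 at 358 ± 122 and the AMPA receptor subunit Gria2 at 295 ± 82.2.

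G protein subunits, which relay signals from metabotropic receptors, had a median of 76.6. Gnas led them, Gnao1, the most abundant alpha subunit of neurons, averaged 1202 ± 156 and Gnai2 875 ± 89.4, while Gnat3 of taste cells averaged 12.0 ± 5.42 and Gnb3 6.92 ± 3.41. Metabotropic glutamate and GABA-B receptors had a median of 60.4, and the class median ranged from 49.0 to 78.2 over the arrays. Gabbr2, a GABA-B receptor subunit, averaged 738 ± 123 and Grm4, a presynaptic glutamate receptor, 542 ± 147, against 38.4 ± 10.6 for Grm6, known from retinal bipolar cells, and 30.7 ± 7.96 for Grm8. Sodium and calcium channel genes had a median of 58.3, with 1 of 23 in the top 10%, Cacna2d1, an auxiliary calcium channel subunit, at 489 ± 149. Scn2a, an axonal sodium channel, averaged 408 ± 133, and Cacna1s, the calcium channel of skeletal muscle, 7.19 ± 2.42.

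Potassium channels had a median of 43.5 and 2 of 38 genes in the top 10%, Kcnab2, an auxiliary subunit, at 676 ± 110 and Kcnh3 at 623 ± 86.9. Monoamine receptors had a median of 39.6, and acetylcholine receptors 38.2 with 0 of 20 in the top 10%. The only monoamine receptor in the top 10% was Drd3, the dopamine receptor of limbic striatum, at 606 ± 71.8. Drd2, another dopamine receptor, averaged 32.8 ± 21.4, and whether the Drd3 probe set reads the named transcript was not tested. Neuropeptide and granin genes were brighter, with a median of 79.6 and 9 of 34 in the top 10%. Cpe and Scg5, which process and chaperone prohormones, averaged 3008 ± 263 and 1483 ± 164, and Cck, the peptide of cortical interneurons and pyramidal cells, 985 ± 163. The peptide genes Gal and Calcb averaged 9.23 ± 3.76 and 6.51 ± 1.62.

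The median percentile of growth factors and their receptors was 53.3, with Ptn, the secreted factor pleiotrophin, at 695 ± 188, Ngfr, the low-affinity neurotrophin receptor, at 520 ± 70.9 and Igf2, which choroid plexus and meninges secrete, at 509 ± 70.1. The dimmest were Tgfb1 at 18.5 ± 1.66 and Egf at 17.3 ± 6.57. Neurofilament and other intermediate filament genes had a median of 64.0. Nefl and Nefm were the brightest, followed by Ina, alpha-internexin of neurons, at 560 ± 142, and the dimmest were the epithelial keratin Krt8 at 20.5 ± 8.14 and the muscle desmin Des at 10.7 ± 1.86.

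Regional lists differed too. Cerebellum-enriched genes had a median of 90.5, with Pcp4, a calmodulin-binding protein of Purkinje cells, at 1106 ± 138. Hippocampus and cortex-enriched genes had a median of 84.1, hypothalamus-enriched genes 61.9, striatum-enriched genes 58.7 and brainstem monoamine neuron genes 44.7. Th, the rate-limiting enzyme of dopamine synthesis in that last list, averaged 184 ± 28.0, a value named here after it was seen. Immediate early genes, which neurons switch on within minutes of activity, had a median of 61.6. Egr1, the brightest of them, averaged 1105 ± 150, from a lowest of 831. Its other probe sets averaged 328, 136 and 101. Fos averaged 343 ± 46.5, with the lowest array at 265, the median at 337 and the highest at 449. The other Fos probe sets averaged 108 or lower. The levels of Egr1 and Fos thus depend on the probe set read. Egr3 averaged 8.64 ± 1.68 and Fosl1 7.94 ± 1.91.

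**Figure D2:**
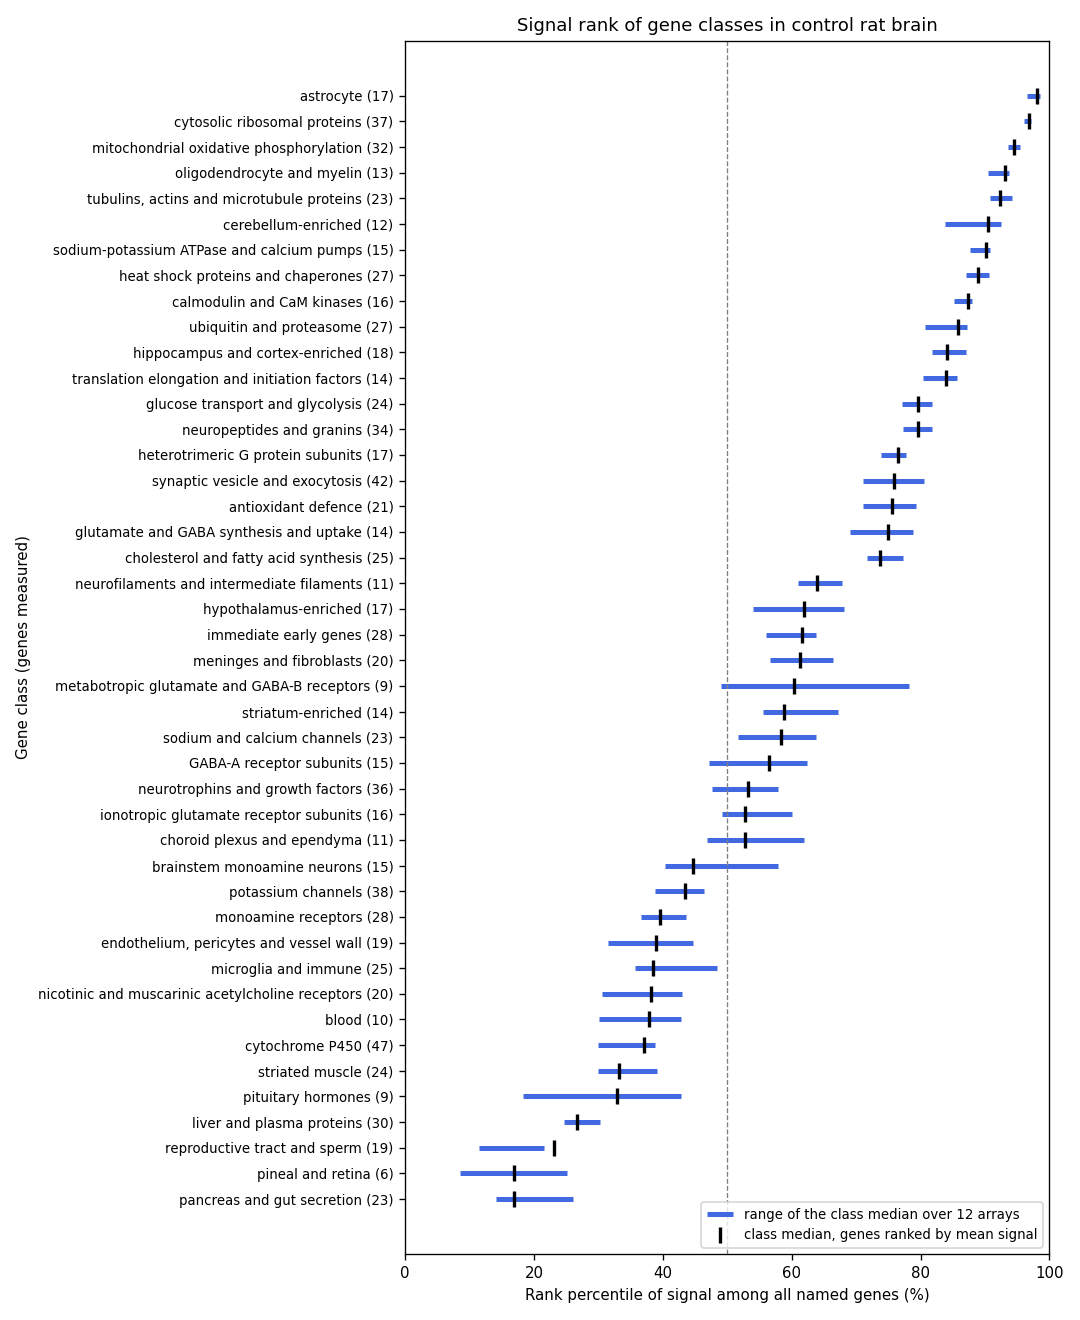
Median rank percentile of signal for 44 gene classes, with the number of genes measured in brackets. The black tick ranks genes by the mean of 12 control arrays and the blue bar spans the class median over single arrays. Ribosomal, respiratory, astrocyte and myelin classes lie above 90, and liver, reproductive, pineal and pancreatic classes under 30. The tick of the reproductive class, 23.1, lies above its bar of 11.5 to 21.6.

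Genes known from organs other than brain were dim as classes and had bright exceptions. Liver and plasma proteins had a median of 26.7 with 22 of 30 genes in the bottom 40%, and pancreatic and gut secretory genes a median of 16.9 with 18 of 23. Cytochrome P450 genes, mostly of liver, had a median of 37.1 with 26 of 47 in the bottom 40%, striated muscle genes 33.3, pituitary hormone genes 32.9 and pineal and retinal genes 17.0. Cyp2d4, a P450 known from rat brain, was the only P450 in the top 10%, at 538 ± 82.7, and Cyp51, a step of cholesterol synthesis, came next at 437 ± 92.6, whereas Cyp3a2 of liver averaged 2.33 ± 1.25. Inha, the inhibin alpha subunit of the gonads, was the brightest reproductive gene at 291 ± 30.3, and Lalba of milk averaged 2.37 ± 0.86. Crp, the acute-phase C-reactive protein of liver, nevertheless averaged 696 ± 187 on one probe set and 534 ± 192 on another, against 40.9 ± 8.84 on the third. Ins2, insulin, averaged 668 ± 48.3, with its 2 other probe sets at 14.4 and 10.5, and Ins1 averaged 288 ± 46.9, with its others at 75.3 and 43.6. Myh3, the embryonic myosin heavy chain of skeletal muscle, averaged 524 ± 58.4, with its 4 others at 35.4 or lower. For Ins2 and Myh3 the level thus rests on a single probe set, and whether these probe sets read the named transcript was not tested. The bright Crp probe sets disagree with the third, and whether they read Crp was not tested either.

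The spread between control arrays was small for most genes. Among 2079 genes with a mean signal of at least 100, the median SD of log2 signal was 0.23, which is a median coefficient of variation of 15.8%, and 5% of genes had an SD of 0.12 or less and 5% an SD of 0.51 or more. The median SD was 0.21 within the spike-in levels and 0.15 among controls 4 to 9 alone, arrays chosen for this after their correlations were seen. Over all probe sets the median coefficient of variation was 17.2% at mean signals of 100 to 500, 12.9% at 1000 to 5000 and 15.1% in the 24 probe sets above 5000.

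**Figure D3:**
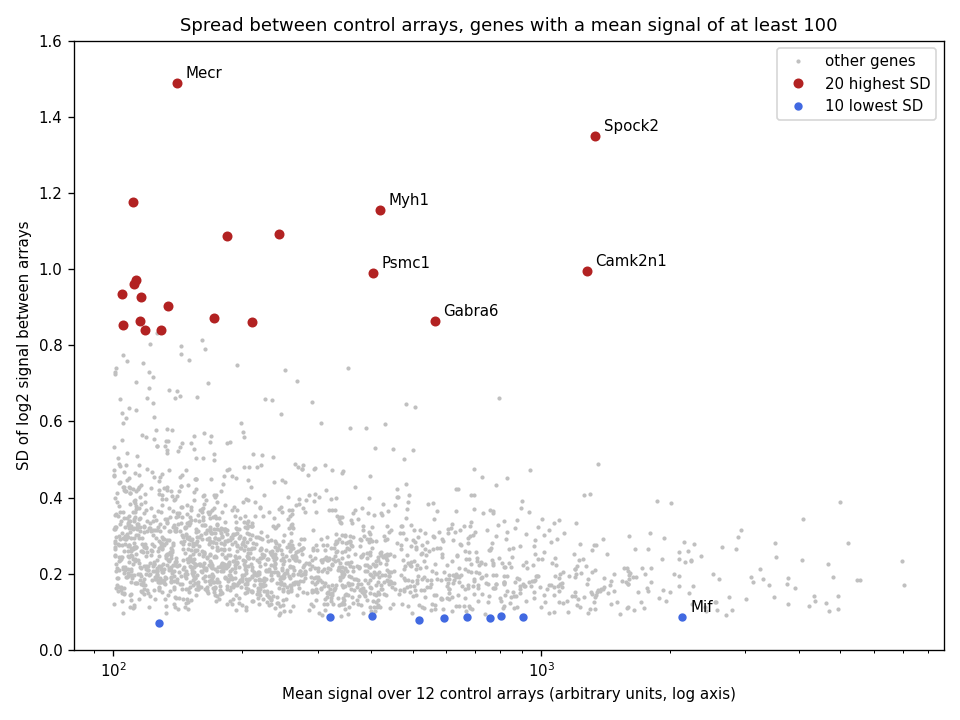
SD of log2 signal over the 12 control arrays against mean signal (log axis, arbitrary units) for the 2079 genes with a mean of at least 100. The 20 genes of highest spread (red) start at 0.84, well above the median of 0.23, and the 10 of lowest spread (blue) lie between 0.07 and 0.09. Spock2 and Camk2n1 are the only red points with means above 1000.

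Spread of whole classes was read against the same share for all genes, 10% in the top 10% by SD. Ionotropic glutamate receptor subunits had 5 of 7 genes there, among them Grik5 (SD 0.58), Gria2 (0.48) and Grin2c (0.44). GABA-A subunits had 4 of 8, among them Gabra6 (0.86). Cerebellum-enriched genes had 3 of 10, and hypothalamus-enriched genes 3 of 9, among them Avp, the hormone vasopressin (0.50). Shares larger than those of both regional lists also stood in small lists from other tissues, with 3 of 5 liver and plasma protein genes, 2 of 4 blood genes and 2 of 5 striated muscle genes. The liver genes there include Crp (0.47), for which what the bright probe sets read was not tested. Both blood genes were beta-globin chains, Hbb (0.46) and Hbb-b1 (0.60), each with its highest values on controls 2 and 7, so they may not count separately. Ribosomal proteins had 1 of 33, oxidative phosphorylation 1 of 30, myelin 0 of 12 and antioxidant genes 0 of 16. Most receptor subunits measured had mean signals under 500, where spread was larger in general, and the part of brightness was not tested.

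The 20 most variable genes had SDs from 0.84 to 1.49, and 1 array decided the value in many of them. In 10 of the 20 the SD fell by more than 1.5 times when 1 array was left out, as it did in 274 of all 2079 genes (13.2%). The array was control 11 for 4 of these genes, control 12 for 3, control 1 for 2 and control 2 for 1. Over all 274 genes the tally was different, with control 2 for 72 genes, control 1 for 59, control 11 for 46, control 10 for 35 and control 12 for 6.

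Mecr, a reductase of mitochondrial fatty acid synthesis, had the highest SD, 1.49. Its lowest value was 16.0, its median 48.6 and its highest 1175, on control 11, while the other 11 arrays reached no more than 68.6. Without control 11 the SD was 0.62. The second Mecr probe set averaged 7.52 and had 13.9 on control 11. Tfrc, the transferrin receptor for iron uptake, had 519 on control 11 and at most 101 elsewhere, Il1r2, a decoy receptor for interleukin 1, 593 against at most 110, and Trappc3, a vesicle tethering subunit, 957 against at most 216. Leaving out control 11 lowered their SDs to 0.36, 0.26 and 0.33, from 0.86, 0.84 and 0.86 over 12 arrays.

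Control 12 was the low array for Spock2, a brain proteoglycan, which had 66.4 there, a median of 1567 and a highest of 1940 (SD 1.35, and 0.49 without control 12). Pmch, the precursor of melanin-concentrating hormone of the lateral hypothalamus, had 30.1 on control 12, a median of 184 and a highest of 279 (SD 0.87, and 0.49 without it). Fgfr2, a fibroblast growth factor receptor, had 18.6 on control 12, a median of 132 and a highest of 161 (SD 0.93, and 0.54 without it). The other 3 Fgfr2 probe sets averaged 71.2, 67.8 and 39.7, and on control 12 they read 52.7, 58.9 and 42.7, within the range of the other arrays.

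Control 1 was the low array for Psmc1, a proteasome ATPase, with 41.7 against 351 to 509 on the other 11, and the SD of 0.99 fell to 0.17 without it. Ssb, the La protein that binds nascent RNA, was listed at 0 on control 1, with a median of 205 and a highest of 290 (SD 1.09, and 0.38 without it). A second Ssb probe set was likewise lowest there, at 0.3, with 99.7 or more elsewhere, whereas the third read 45.5 on control 1 within a range of 42.7 to 74.4. Myh1, a fast myosin heavy chain of muscle, had 34.9 on control 2, a median of 486 and a highest of 573 (SD 1.15, and 0.50 without it). Without the array that stood apart, the SDs of these 10 genes were 0.17 to 0.62.

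Camk2n1, an inhibitor of the calcium kinase CaMKII at synapses, varied in another way. Its value was 454 on the lowest array, 810 at the median and 2759 on the highest. The 5 arrays of high spike-in level had 1318 to 2759 and the 7 of low level had 454 to 813, with no overlap. The SD was 0.99 over 12 arrays and 0.40 within the levels, and the second Camk2n1 probe set split the same arrays, with 296 to 801 at the high level and 82.8 to 172 at the low. Among all 2079 genes, 33 (1.59%) lay above without overlap at the high level and 40 (1.92%) below, and Camk2n1 was the only such gene of the 20. The part of the spike-in level in its spread was not tested.

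Other variable genes had several arrays apart. Tnc, the matrix protein tenascin C, was at 32.2, 16.0 and 30.0 on controls 2, 3 and 10, with a median of 124 and a highest of 192 (SD 1.18), while its 2 other probe sets averaged 14.4 and 2.22. Gstk1, a mitochondrial glutathione transferase, was at 64.4, 86.5 and 43.3 on controls 1, 6 and 7, with a median of 313 and a highest of 410 (SD 1.09). Its second probe set, averaging 47.6, was also lowest on control 7. Nos2, the inducible nitric oxide synthase, was at 29.1, 32.0 and 45.4 on controls 1, 2 and 11 and at 79.9 to 225 on the other 9 (SD 0.96). A second Nos2 probe set, averaging 97.3 with an SD of 0.35, had its highest value, 129, on control 1. Ptpn23, a phosphatase of endosomal sorting, had 26.5 and 32.6 on controls 4 and 7 (SD 0.97), while its second probe set, at 49.8 to 79.3, had an SD of 0.20.

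Tnfrsf1a, a receptor for tumour necrosis factor, was between 42.7 and 58.3 on controls 3, 5, 6 and 10 and between 124 and 213 on the other 8 (SD 0.90). Polr2a, the largest subunit of RNA polymerase II, ranged from 20.6 on control 11 to 169 on control 9 (SD 0.93). Mgmt, a DNA repair protein, had 30.6 and 24.2 on controls 7 and 11 and 98.6 or more elsewhere (SD 0.85), and its second probe set had 62.2 and 51.8 on those arrays in a range of 51.8 to 104. Ces1dl1, a carboxylesterase by its symbol, had 382 and 210 on controls 12 and 3 and 39.1 on control 1, with a median of 89.8 (SD 0.84).

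**Figure D4:**
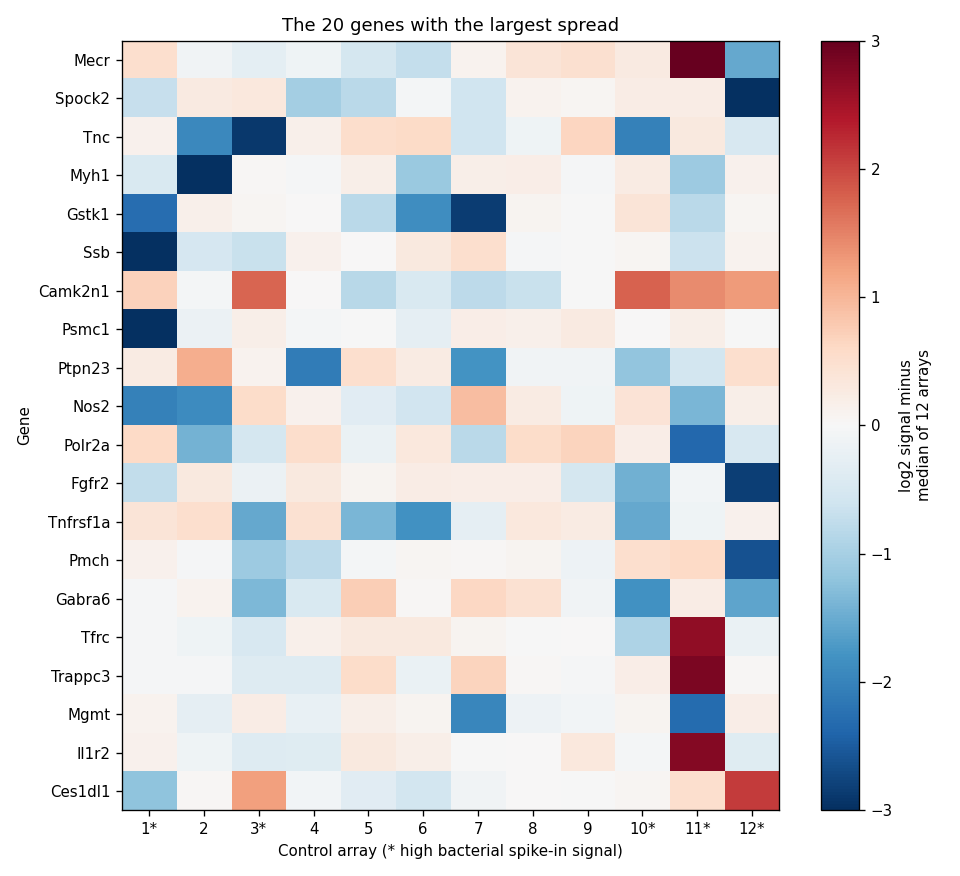
Heat map of the 20 genes with the largest spread. Each cell is the log2 signal, after the floor of 16.6, minus that gene's median over the 12 arrays, red above and blue below, with colours capped at 3, and stars mark arrays of high spike-in signal. Mecr, Tfrc, Trappc3 and Il1r2 are darkest red on control 11, and Camk2n1 is red on all 5 starred arrays.

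Gabra6 also belongs to the cerebellum-enriched genes. It had 166 on control 10, 198 on control 12 and 232 on control 3, against a median of 589 and 426 to 990 on the other 9 arrays (SD 0.86). Itpr1, the calcium-release channel abundant in Purkinje cells, Nsg1, a neuronal endosomal protein, and Neurod1, a transcription factor of granule cells, had their lowest values on the same 3 arrays. Neurod1 was at 249, 336 and 352 on controls 10, 12 and 3, with a highest of 931 on control 7. Grin2c was at 261 and 279 on controls 10 and 12, with 384 or more elsewhere. The remaining members had other arrays among their 3 lowest. These were controls 2, 4 and 10 for the calcium buffer gene Calb1, 4, 10 and 12 for Pvalb, 6, 10 and 12 for Grin2c, 1, 3 and 12 for Kcnc1, 1, 11 and 12 for Atp2b2 and 4, 11 and 12 for Pcp4. Atp2b2 read 510 on control 10, near its median of 517, and Pcp4 read 1184 there, in a range of 936 to 1417.

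Over the 10 members of that list with a mean of at least 100, the median deviation from each gene's own median was -0.44 on control 10, -0.43 on control 12, -0.17 on control 4 and -0.14 on control 3, and 0.36 on control 7. The same measure over all 2079 genes ranged over 0.06. For hippocampus and cortex-enriched genes it ranged over 0.14, from -0.06 on control 11 to 0.09 on control 3, the smallest range of the classes measured. The cerebellar range of 0.80 was exceeded by those of 3 smaller lists, 0.95 for 3 pituitary genes, 0.86 for 5 liver and plasma protein genes and 0.84 for 4 blood genes. Controls 3, 10 and 12 were of high spike-in level and control 4 of low level, and the other arrays of high level, controls 1 and 11, had cerebellar medians of 0.09 and -0.02. How much cerebellum each sample held was not tested.

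**Figure D5:**
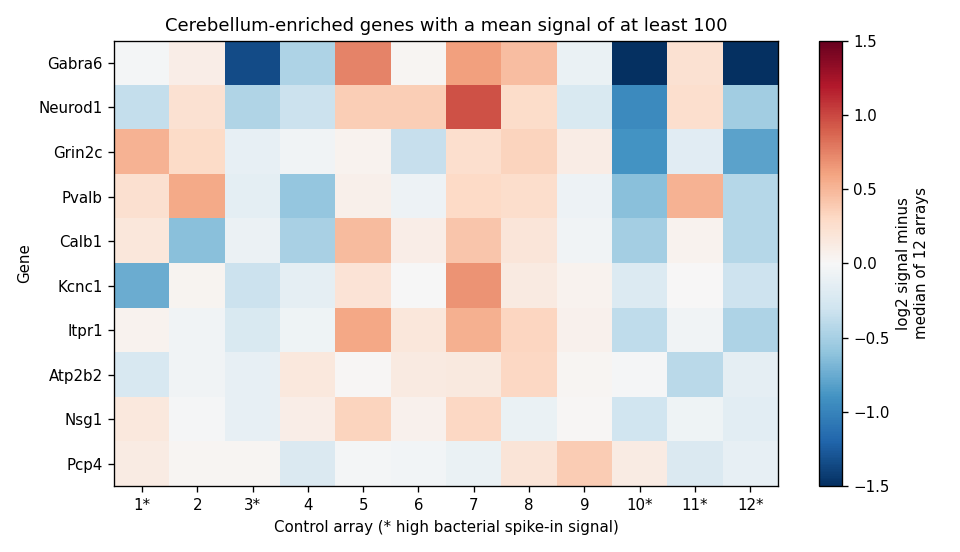
Heat map of the 10 cerebellum-enriched genes with a mean signal of at least 100, ordered by spread. Each cell is the log2 signal minus that gene's median over the 12 control arrays, with colours capped at 1.5. Gabra6, Neurod1, Grin2c and Itpr1 are blue on controls 10 and 12 and red on control 7, while Pcp4 stays near 0 on those arrays.

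The steadiest genes varied by a few percent. The 10 lowest SDs, 0.07 to 0.09, belonged to genes with mean signals from 128 to 2135. Tmod1, which caps actin filaments, ranged from 116 to 136 with a median of 130 (SD 0.07), and Dbi, the acyl-CoA binding protein, from 457 to 561 with a median of 518 (SD 0.08). Mif, a cytokine abundant in neurons, ranged from 1914 to 2341 with a median of 2147 (SD 0.09). The signalling adaptor Grb2, the endosomal ATPase Vps4a, the phosphatase Alpl, the axonal transport protein Fez1, the Rab regulator Gdi2, the dynactin subunit Dctn1 and Mylk2, a myosin kinase, made up the rest. Low spread belonged to the probe set and not always to the gene, since the second Mif probe set had an SD of 0.30, the second Alpl probe set 0.35 and the other 2 Grb2 probe sets 0.27 and 0.28.

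Co-variation of gene pairs from shared cell types could be computed for 7 pairs over the 12 arrays, and none passed correction. Ttr and Enpp2, the secreted lipase of choroid plexus, had Pearson's r = 0.42 (permutation p = 0.167, adjusted 0.469) and Spearman's rho = 0.62 (permutation p = 0.0357, adjusted 0.25 over 7 pairs). Without controls 4 and 5, the arrays farthest from the median of Ttr, r was 0.59 (permutation p = 0.0701, adjusted 0.491), and among the 7 arrays of low spike-in level it was 0.57 (exact permutation p = 0.175, adjusted 0.52). The pituitary hormones Gh1 and Prl, both dim at means of 47.3 ± 20.5 and 23.5 ± 11.5, had r = 0.45 (permutation p = 0.139, adjusted 0.469) and rho = 0.26 (permutation p = 0.419, adjusted 0.734). The striatal pair Penk, at 428 ± 91.8, and Drd2, at 32.8 ± 21.4, had r = 0.35 and rho = 0.46, with adjusted permutation p of 0.469 and 0.48. Drd2 was above 16.6 on only 8 of the 12 arrays and Prl on 10. The correlations of these 2 genes therefore include values tied at the floor.

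The myelin genes Mag, at 692 ± 156, and Mog, at 353 ± 43.5, had r = 0.09 and rho = 0.15 (adjusted permutation p of 0.914 and 0.872). Fos with Egr1 had r = 0.13 and rho = 0.10 (adjusted permutation p of 0.914 and 0.872), and Junb, at 133 ± 22.7, with Egr1 had r = -0.35 and rho = -0.30 (adjusted permutation p of 0.469 and 0.734). Hbb, a beta-globin chain at 182 ± 61.8, and Alas2, the haem synthesis enzyme of red cell precursors at 153 ± 22.0, had r = 0.01 and rho = 0.03 (adjusted permutation p of 0.964 and 0.939). Without the 2 arrays farthest from the median, r was 0.35 for Penk with Drd2, 0.33 for Gh1 with Prl, 0.34 for Fos with Egr1, 0.17 for Mag with Mog, -0.01 for Junb with Egr1 and -0.26 for Hbb with Alas2. At the low spike-in level the same pairs had r of 0.27, 0.54, 0.25, -0.30, -0.27 and 0.58, none with an adjusted exact permutation p under 0.52.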

How the data were processed

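The authors deposited linear intensities, 1 for every probe set on every array, and the columns of the 12 control arrays were read through their titles. The software behind these intensities, its scaling and detection calls are not given in the sources used here; trimmed means (2% at each end) of 150.1 to 150.2 per array showed that arrays had been scaled, and this scaling was kept. Of 8799 probe sets, 59 control probe sets were left out, and of the 8740 others 7006 had 1 symbol in the platform annotation, 308 several and 1426 none. A gene's Entrez identifier was looked up in a rat gene table (6985 found, 0 symbols changed).

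Spread was ranked among genes with a mean of at least 100. Named genes were the 25 brightest, the 20 of highest and 10 of lowest SD, up to 3 brightest and 2 dimmest members of a class, and all genes of the pairs. Members and lists were chosen with earlier results of these data known. No test between groups was made. Pair correlations used 100000 permutations (all permutations for 7 arrays), two-sided, with Benjamini-Hochberg adjustment over 7 pairs. Python 3.11.15, numpy 2.4.6, pandas 2.3.3, scipy 1.17.1 and matplotlib 3.10.9 were used. The code for the spread ranking was run on simulated data in which all unchanged genes shared the same SD. Real spread depends on brightness, so that run checks the code and says nothing about the list of variable genes. Alternatives were other ranking statistics, quantile normalization, median centring, other floors and minimum means, subsets of arrays and leaving out each array. For arrays, their number limits the precision.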

Additional observations from a re-analysis of the deposited data

How the results depend on the processing

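The 25 brightest genes were nearly fixed while a gene was read by its brightest probe set: 24 or 25 of them returned when genes were ranked by the median or by mean log2 signal, after quantile normalization, on low or high spike-in arrays alone, and without controls 10 to 12. A ranking by all probe sets of a gene was not made for this list. Classes with a median percentile of at least 75 numbered 12 to 18 and those under 40 numbered 10 to 12 under these alternatives and with the mean percentile of all probe sets of a gene, which moved 31 of the 44 class medians. By that mean percentile, cytosolic ribosomal proteins and not astrocyte genes had the highest median, 95.5 against 91.7. Among probe sets with 1 symbol, the 100 brightest held 22.5% of signal. The membership of the 20 most variable genes was less stable. It shared 11 genes with the list at a minimum mean of 50, 7 at 200, 6 by median absolute deviation, 9 without controls 10 to 12 and 3 with controls 4 to 9 alone, an alternative chosen after seeing the data, where the median SD was 0.16. Raising the minimum mean changes which genes can be listed, and the cause of the other changes was not tested. Leaving out 1 array at a time kept 14 to 20 of the 20 and a median SD between 0.23 and 0.24. Pair correlations reversed for Hbb with Alas2 without 2 arrays (r = -0.26) and for Mag with Mog at the low spike-in level (r = -0.30). No paired analysis was possible because only 1 group was described. Signal near or under 16.6 carries no order, and probe affinity limits every comparison between genes.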

Other observations

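Some of the most variable probe sets have no gene name. The unnamed probe set X05472cds#2_at had the largest log2 SD of all 3285 probe sets with a mean of at least 100, 1.93. It read 3382, 3838 and 3456 on controls 3, 11 and 12 and between 101 and 496 on the other 9. The unnamed probe sets M13100cds#1_at and M13100cds#1_g_at were high on the same arrays, the first at 3960, 6368 and 4517 against 918 to 1362 elsewhere, the second at 631, 852 and 891 against 108 to 246. Ces1dl1 was also highest on controls 12 and 3. These 3 arrays are of high spike-in level, as are controls 1 and 10, which had none of these high values.

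Fat2, a cadherin of cerebellar granule cells that was chosen after its values were seen, had 51.2 on control 10, 55.4 on control 12 and 97.6 on control 3, with a median of 167 and a highest of 235 on control 7. Control 4, at 85.1, was also low for this gene.

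Other classes moved between arrays as well. The 4 blood genes with a mean of at least 100 had a median deviation of 0.49 on control 2 and 0.47 on control 7, and -0.35 on control 8. The 3 pituitary genes reached 0.74 on control 4 and -0.20 on control 1. Oxytocin and vasopressin genes, Oxt and Avp, were both lowest on control 4 and highest on control 10, with means of 226 ± 100.2 and 479 ± 167. With so few members, these medians rest on single genes.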
